A study of Mus musculus with 21 samples.

Results

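The genes described here encode heat shock proteins and their partners: Hsp90aa1, Hsp90ab1, Hspa8, Hsph1, Dnaja1, Dnajb1, Bag3, Hspb1, Hspd1 and Hspe1. They were followed in blood progenitors of mice that had or lacked Dot1l, the histone H3 lysine 79 methyltransferase. Probe sets were taken where the platform annotation lists the gene alone, and each gene was read from its probe set with the highest mean log2 intensity over all 21 arrays. This gave 9 of the 10 genes, with 22 probe sets among them, out of 18194 genes and 45101 probe sets measured. Hsp90ab1, the constitutive cytosolic HSP90, was not analysed here because no probe set is listed for it alone. The genes had been gathered as cytosolic, and Hspd1 and Hspe1 go against that label, since their proteins form the chaperonin of the mitochondrial matrix.

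RNA came from cells sorted from bone marrow of mice of C57/BL6 background. LSK cells are lineage negative and positive for Sca-1 and Kit, and contain the stem and multipotent progenitor cells. GMP cells are the granulocyte-macrophage progenitors that arise from them. Control mice were Dot1 wt/wt x Mx-Cre, and deleted mice carried floxed Dot1l with Mx-Cre and are labelled Dot1l -/-. Every mouse, controls included, thus carried the interferon-inducible Cre and received PIPC, the double-stranded RNA that induces it; Mx-Cre acts in blood cells and also in other tissues. There were 6 control LSK, 6 deleted LSK, 5 control GMP and 4 deleted GMP arrays, named below by the K number in their titles. The labels give no age for the mice. Nor do they state that every array stands for a mouse of its own, so a p-value here covers only the spread among these arrays, some of which may be technical. In sorted bulk cells, fewer cells that express a gene and less of its RNA per cell cannot be told apart.

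Heat shock proteins bind unfolded or unfinished proteins and keep them from clumping until they fold. HSP70 proteins take up short hydrophobic stretches in a cycle that J-domain proteins start and nucleotide exchange factors such as HSP110 and the BAG proteins reset, and HSP90 then completes the folding of kinases and receptors. Many of the genes are transcribed when the factor HSF1 binds heat shock elements, which are repeats of GAA and its complement TTC in alternating orientation. Cells also make several of these chaperones in amounts that follow growth and protein synthesis, without any heat or stress.

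Promoter windows of RefSeq, assembly GRCm38.p6, reach from 250 bases before a transcript start to 50 after it, and were listed for 7 of the 10 genes in 12 windows. No window was listed for Hsp90aa1, Hspa8 or Hsp90ab1, so these genes were not searched. Both strands were searched for GAANNTTC or TTCNNGAA, a pair of facing units, and for the longer GAANNTTCNNGAA or TTCNNGAANNTTC, which contain a pair. A pair of units was found in 6 of these genes, against 17.0% of all genes with a window. It was found in 7 of their 12 windows, against 15.1% of all 32851 windows. The longer run was found in Hspd1, Hspe1 and Hsph1, against 0.662% of all genes with a window and 0.603% of all windows. A window of Hspd1 and that of Hspe1 overlap and hold the same run, and so do the windows of Hsph1. The stretches below are shown because they differ in number and place of these units among genes whose array values are given later; capitals mark the matches, and a match of letters is not a measured binding site. Hspd1 lies on the minus strand and Hspe1 on the plus strand of chromosome 1, and their starts face away from each other across 215 bases, in which 4 units stand in a row. The bases at chr1:55087933-55088147 on the plus strand, which reads toward Hspe1, are given first. RefSeq lists another start of Hspd1 at 55088243, beyond this stretch. The stretches before a start of Hspb1 (chr5:135887799-135887918, plus strand), Hsph1 (chr5:149636337-149636456, minus strand) and Dnaja1 (chr4:40722318-40722467, plus strand) follow.
Hspd1 and Hspe1: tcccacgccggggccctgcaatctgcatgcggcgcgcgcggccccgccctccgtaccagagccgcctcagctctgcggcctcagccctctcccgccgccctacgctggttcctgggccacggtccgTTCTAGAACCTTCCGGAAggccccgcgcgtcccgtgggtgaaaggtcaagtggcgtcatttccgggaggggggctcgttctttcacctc
Hspb1: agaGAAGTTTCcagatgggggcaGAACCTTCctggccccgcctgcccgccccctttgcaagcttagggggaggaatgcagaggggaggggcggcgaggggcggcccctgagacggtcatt
Hsph1: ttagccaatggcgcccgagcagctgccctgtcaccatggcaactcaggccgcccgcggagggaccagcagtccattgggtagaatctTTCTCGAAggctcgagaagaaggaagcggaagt
Dnaja1: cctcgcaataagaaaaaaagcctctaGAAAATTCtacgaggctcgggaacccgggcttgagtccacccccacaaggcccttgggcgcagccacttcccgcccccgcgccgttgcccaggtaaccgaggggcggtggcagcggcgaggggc
In Hspb1 the matches begin 117 and 97 bases before the start, and in Dnaja1 the match begins 124 bases before it. In Hsph1 the pair shown begins 33 bases before the start, and its longer run lies after the start, outside the stretch shown. Bag3 holds a match only after its start, and in Dnajb1 none of these letters was found in either of its windows.

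The values are log2 of the deposited intensity, and a difference of 1 is a doubling of the signal. Single values are not set against those of other genes, because probe sets differ in brightness. The upper quartile of all probe sets on an array is called its brightness here. It lay between 6.60 and 6.76 in control LSK and between 6.18 and 6.78 in deleted LSK. In control GMP it lay between 6.19 and 6.57, and in deleted GMP between 6.27 and 6.77. The 3 lowest arrays were deleted LSK K1272 (6.18), control GMP K1603 (6.19) and control GMP K1601 (6.20). Their medians over all probe sets were instead the highest of the study, at 4.98, 4.90 and 4.87. An array called dim below is thus low in its upper quartile, not in all its values. K1272 of deleted LSK also had the lowest mean rank correlation with its own group, 0.649, against 0.810 or more in every group other than deleted LSK. Over the 6 LSK sort and stem cell markers measured, its mean relative to all arrays was -2.13. Control LSK ranged from 1.32 to 2.05, the other deleted LSK arrays from -0.58 to 1.87 and control GMP from -1.84 to -0.89. Of the deleted LSK arrays, only K1359, at 1.87, lay within the range of control LSK. The mean of deleted LSK K1272 over 7 GMP markers was -1.56, against 1.38 to 1.96 in control GMP. Between the control groups the means of all 7 GMP markers and of 5 of the 6 LSK markers were higher in the cells they mark, with Flt3 at 10.19 in LSK and 5.12 in GMP, and Elane at 9.86 and 13.45. Slamf1, dim in both, went the other way, at 3.70 in LSK and 3.97 in GMP. Of 9 mature neutrophil markers, 8 were higher in control LSK than in control GMP, 2 of them called. Their mean relative to all arrays ran from -0.44 to 3.67 in control LSK, highest on K1581, and from -0.16 to 0.26 in control GMP. In LSK deletion all 9 stood below 0, with a median of -2.22 and none called. The part of other cells in the LSK values was not tested. The arrays K1190 and K1272 of deleted GMP were close to each other, with a rank correlation of 0.982. The brighter of the Dot1l probe sets differed between deleted and control GMP by -0.52 ± 0.23 (SE, limma, adjusted p = 0.348). No source used here places these probe sets inside or outside the floxed exons, so they do not check the genotype.

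Loss of Dot1l was followed by no called change in any of these chaperone genes in either cell type. In LSK, 0 of 9 genes passed limma's test at an adjusted p of 0.05 over all genes, where 0% of all genes passed, and the lowest adjusted p was 0.985. None of the 9 was under an unadjusted p of 0.05, against 5.61% of all genes, and 3 of the 9 estimates stood above 0, against 58.4% of all genes. In GMP, 0 of 9 passed, where 0.143% of all genes did, and the lowest adjusted p was 0.255, for Hsp90aa1. Of these 9 genes, 3 were under an unadjusted 0.05, against 13.9% of all genes: Hsp90aa1, Dnaja1 and Hspb1. The estimates in GMP stood above 0 for 8 of the 9 genes, with a median of 0.96, while 34.3% of all genes stood above 0 and their median was -0.20. With genes of a mean log2 under 5 left out, the median of all genes was -0.071. In mean signal over all arrays, the heat shock genes other than Hspb1 and Bag3 ranked at the 95th percentile of all genes or higher. In LSK the median over the 9 was -0.027 and that of all genes was 0.06. No gene had groups without overlap in either comparison, where 0.33% of all genes in LSK and 4.78% in GMP did.

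**Figure D1:**
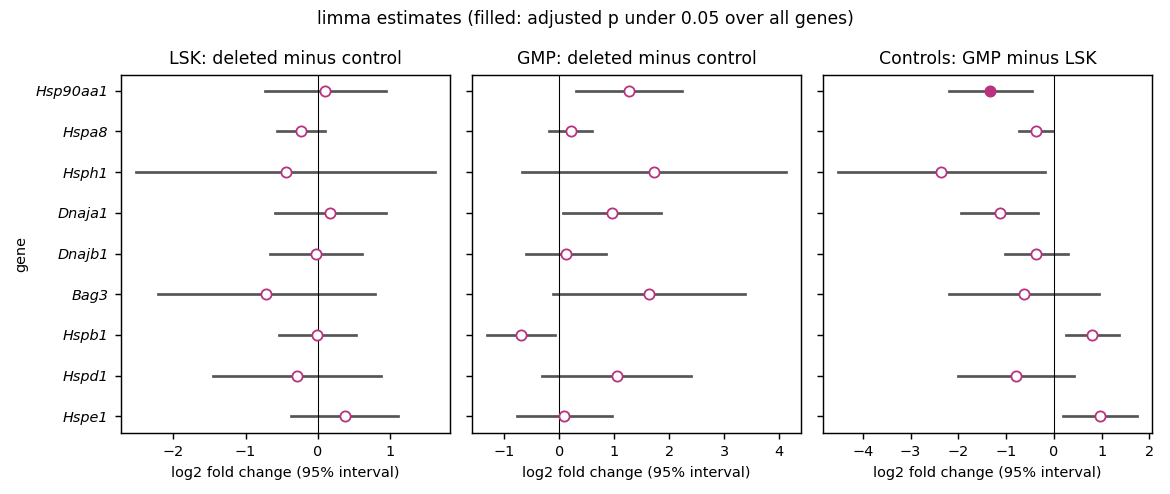
Estimated log2 fold change of each heat shock gene with its 95% interval from limma, for deleted minus control LSK (left), deleted minus control GMP (middle) and control GMP minus control LSK (right). Filled points have an adjusted p under 0.05 over all genes; Hsp90aa1 in the right panel, at -1.33, is the only one.

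Between the control cell types, 1 of 9 genes passed, where 12% of all genes did. Hsp90aa1 was lower in control GMP than in control LSK, with a log2 difference of -1.33 ± 0.42 (SE, n = 5 and 6, adjusted p = 0.0437). Of all genes, 7.03% were called higher and 4.95% lower in control GMP. Of the 9 genes, 6 were under an unadjusted p of 0.05, against 33.8% of all genes. Groups without overlap were found for 2 of 9 genes, against 14.7% of all genes. Hspa8 was lower in every control GMP array, as 3.43% of all genes were, and Hspe1 was higher in every one, as 11.3% were, and neither passed the test. The median over the 9 genes was -0.62, beside 0.29 over the whole set of genes. When the fit took in the brightness of the arrays as a covariate, these medians became 0.10 and 0.01, and 0 of the 9 passed. Every control GMP array had a lower upper quartile than every control LSK array, at most 6.57 against at least 6.60. Brightness and cell type therefore cannot be told apart between the control groups, and this covariate can also take up a difference between the cell types. In GMP deletion the same covariate moved the median of the 9 from 0.96 to 0.27 and that of all genes from -0.20 to -0.073. The 26 genes called there without the covariate were split into 15 higher and 11 lower, and the 36 called with it into 11 higher and 25 lower. Between the deleted cell types 0 of 9 passed, where 0.143% of all genes did, and the lowest adjusted p was 0.657, for Bag3. That gene alone was under an unadjusted 0.05, against 7.28% of all genes, and no gene of the 9 had groups without overlap, where 2.03% of all genes had none.

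**Figure D2:**
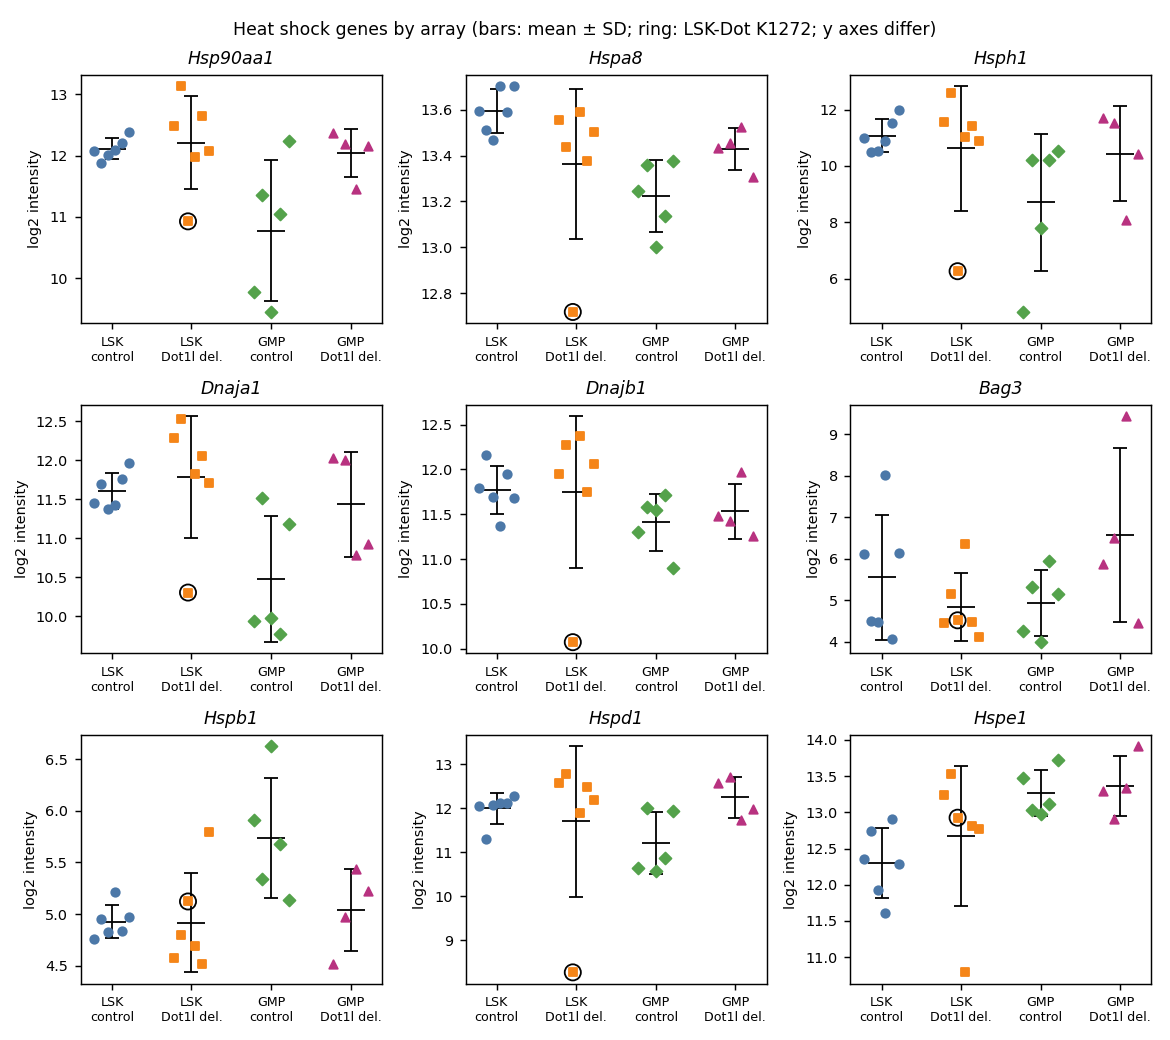
Log2 intensity of the 9 heat shock genes on every array, by group, with the mean and SD of each group as bars and different y axes per gene. The ringed array, deleted LSK K1272, is the lowest of its group for Hsp90aa1, Hspa8, Hsph1, Dnaja1, Dnajb1 and Hspd1, and lies among the others for Bag3, Hspb1 and Hspe1.

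Hsp90aa1 encodes the inducible cytosolic HSP90, which matures kinases and hormone receptors. Its level in control LSK ran from 11.89 to 12.38 with a median of 12.08, and in deleted LSK from 10.93 on K1272 to 13.14 on K1190 with a median of 12.28. The 5 control GMP arrays read 9.78 on K1601, 11.35 on K1602, 9.45 on K1603, 11.06 on K1604 and 12.24 on K1581. The 4 deleted GMP arrays read 12.36, 12.18, 11.46 and 12.15 on K1190, K1272, K1359 and K1421. Control GMP was thus the most spread group, and its highest array lay above 3 of the 4 deleted ones. The difference in GMP on deletion was 1.26 ± 0.46 (SE, limma, adjusted p = 0.255), and in LSK it was 0.10 ± 0.40 (adjusted p = 0.992). The difference between these effects was 1.16 ± 0.61 and did not pass (adjusted p = 0.386).

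The lowest control GMP arrays for Hsp90aa1 were K1601 and K1603, which were 2 of the 3 dimmest of the study; K1602 and K1604 also lay below every control LSK array, and K1581 did not. Without K1601 the difference was -1.08 (limma, adjusted p = 0.103), without K1603 it was -1.0 (0.132), and without both and deleted LSK K1272 it was -0.56 (0.174). With the upper quartile as a covariate it was -0.51 (adjusted p = 0.557), after centring each array on its upper quartile it was -1.0 (0.0573), and with the mean of its probe sets it was -0.38 (0.21). The call was lost on leaving out 14 of the 21 arrays, 1 at a time: each of the 6 control LSK arrays, K1091, K1421 and K1422 of deleted LSK, K1601, K1603 and K1604 of control GMP, and K1190 and K1272 of deleted GMP. Over all 21 the adjusted p ranged from 0.0131 to 0.132. The other bright probe sets of the gene had differences of -1.15 ± 0.46 (1426645_at) and -0.80 ± 0.33 (1438902_a_at), and the dimmest ones had 0.25 and 1.13, none of them called.

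Hspa8 encodes HSC70, the HSP70 that cells make without stress and that also strips clathrin from vesicles. On the chosen probe set its values were the most even of the set. They ran from 13.47 to 13.70 with a median of 13.59 in control LSK. In deleted LSK they ran from 12.72 on K1272 to 13.59 with a median of 13.47. Control GMP read 13.24, 13.36, 13.00, 13.13 and 13.38 on K1601, K1602, K1603, K1604 and K1581, and deleted GMP 13.44, 13.46, 13.52 and 13.31 on K1190, K1272, K1359 and K1421. All control GMP arrays lay below all control LSK arrays, by a mean difference of -0.37 ± 0.17 (SE, limma, adjusted p = 0.126), which was not called. This SE rests on a spread shared by all 4 groups. The SD was 0.096 in control LSK, 0.16 in control GMP, 0.091 in deleted GMP and 0.33 in deleted LSK. On deletion the difference was -0.23 ± 0.16 in LSK (adjusted p = 0.985) and 0.21 ± 0.19 in GMP (0.572). The GMP difference was larger on the other probe sets: 0.77 ± 0.34 on 1420622_a_at, 0.84 ± 0.37 on 1420623_x_at and 1.07 ± 0.89 on 1431182_at. None of these passed over all probe sets (limma, adjusted p = 0.342, 0.345 and 0.57). Of its other probe sets, 1420622_a_at and 1420623_x_at had groups without overlap in the control comparison too, while 1431182_at stood on the other side of 0, at 0.72 ± 0.80. The former had differences of -0.94 ± 0.30 and -1.01 ± 0.34 (adjusted p over all probe sets, 0.0545 and 0.0613), where 12.9% of all probe sets had no overlap. Without deleted LSK K1272, whose removal narrows the estimated spread, Hspa8 passed the control comparison (adjusted p = 0.0254). With the upper quartile as a covariate its difference shrank to -0.15 (limma, adjusted p = 0.672), and with centring on it to -0.043 (0.88).

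Hsph1 encodes HSP105, an HSP110 protein that exchanges the nucleotide of HSP70 and helps to pull aggregates apart. It had the largest SD of the set in control GMP, 2.44, and in deleted LSK, 2.22, where Bag3 had the largest in the other groups. Control LSK ran from 10.49 to 12.00 with a median of 10.94, and deleted LSK from 6.27 on K1272 to 12.57 with a median of 11.22. Control GMP read 4.82 on K1601, 10.20 on K1602, 7.79 on K1603, 10.23 on K1604 and 10.52 on K1581. Deleted GMP read 11.71, 11.53, 8.07 and 10.43 on K1190, K1272, K1359 and K1421. The low values in control GMP were again those of K1601 and K1603, and the deleted GMP arrays K1359 and K1421 lay within the range of the controls. The difference on deletion in GMP was 1.72 ± 1.15 (SE, limma, adjusted p = 0.467), and that between the control cell types was -2.36 ± 1.04 (0.122). The GMP difference was 0.75 without control GMP K1601, 0.12 without the 3 dimmest arrays and 0.37 with the upper quartile as a covariate, and the control difference was -1.39, -0.75 and 0.26 under the same settings.

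The other probe set of Hsph1, 1425993_a_at, separated the GMP groups. It read 5.23 to 9.22 in the 5 control GMP arrays and 9.51 to 11.24 in the 4 deleted ones, with no overlap, where 4.41% of all probe sets had none. The difference of 2.56 ± 0.77 did not pass over all probe sets (SE, limma, adjusted p = 0.198), where 0.0754% passed. It was 1.89 without control GMP K1603, 1.56 without the 3 dimmest arrays and 1.86 with the upper quartile as a covariate. Between the control cell types it was called, at -2.38 ± 0.70 (adjusted p = 0.0385), where 9.59% of all probe sets were called. That call was lost without K1601 (0.0758), K1604 (0.0792), K1581 (0.0614) or K1553 (0.073) of control LSK, and without K1601 (0.0686), K1603 (-1.71, 0.114) or K1604 (0.0546) of control GMP. It was also lost without the 3 dimmest arrays, at -1.38 ± 0.57 (0.118), and with the upper quartile as a covariate, at -1.04 ± 0.71 (0.507), and it held after centring on the upper quartile (0.035).

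**Figure D3:**
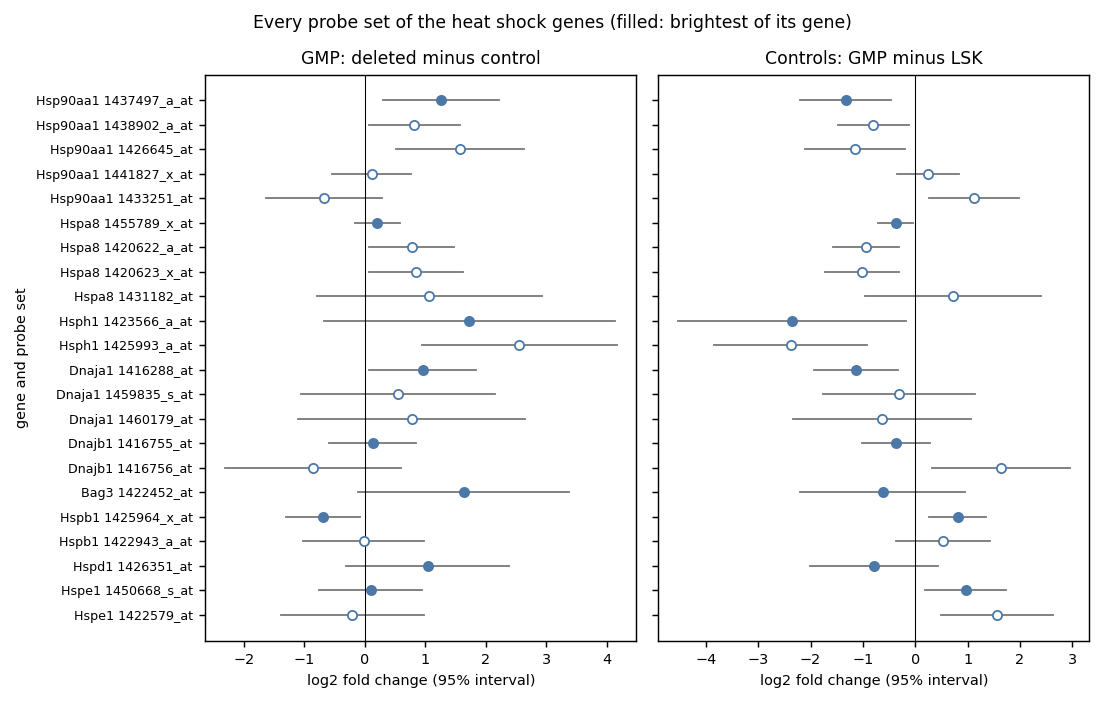
Estimated log2 fold change with its 95% interval for all 22 probe sets of the heat shock genes, for deleted minus control GMP (left) and control GMP minus control LSK (right), from the fit over all probe sets. Filled points are the probe set chosen for its gene; the probe sets of Dnajb1 and the dimmest ones of Hsp90aa1 and Hspa8 differ in sign from the chosen one in the right panel.

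Dnaja1 and Dnajb1 encode J-domain partners of HSP70, the first a class A protein and the second the stress-inducible HSP40. Dnaja1 ran from 11.37 to 11.96 in control LSK, and from 10.30 on K1272 to 12.52 in deleted LSK, with medians of 11.57 and 11.94. Control GMP read 9.94, 11.51, 9.98, 9.77 and 11.18 on K1601, K1602, K1603, K1604 and K1581, and deleted GMP 12.02, 12.01, 10.79 and 10.93 on K1190, K1272, K1359 and K1421. In control GMP, 3 values lay under 10 and the others reached into the deleted group. The difference on deletion in GMP was 0.96 ± 0.43 (SE, limma, adjusted p = 0.332), and between the control cell types it was -1.13 ± 0.38 (0.058). Without deleted LSK K1272, or without K1602 or K1581 of control GMP, the latter passed, with a lowest adjusted p of 0.0147. With the upper quartile as a covariate it was -0.21 (limma, adjusted p = 0.772) and with the mean of the gene's probe sets -0.69 (0.343), and the other probe sets gave -0.31 and -0.63. The GMP difference became 0.48 with the covariate.

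Dnajb1 did not share this pattern. Control LSK ran from 11.37 to 12.16 with a median of 11.74, and deleted LSK from 10.07 on K1272 to 12.38 with a median of 12.00. Control GMP lay between 10.90 and 11.71 and deleted GMP between 11.26 and 11.98. In control GMP the lowest array was K1581, and K1601 and K1603 read 11.30 and 11.55. K1601 still lay below every control LSK array. Its differences were 0.13 ± 0.35 on deletion in GMP (SE, limma, adjusted p = 0.862) and -0.37 ± 0.32 between the control cell types (0.395). Its dimmer probe set, 1416756_at, had the opposite signs, at -0.86 ± 0.70 and 1.64 ± 0.63 (adjusted p over all probe sets, 0.56 and 0.0934), so the probe sets of this gene disagree.

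Bag3 encodes the BAG protein that links HSP70 to small heat shock proteins and to autophagy of damaged proteins. Most of its values were low, with medians of 5.31 in control LSK, 4.49 in deleted LSK and 5.14 in control GMP, and single arrays stood out. These were control LSK K1604 at 8.03 and deleted GMP K1359 at 9.44, where the other deleted GMP arrays read 5.88, 6.50 and 4.45. The difference on deletion was 1.64 ± 0.84 in GMP (SE, limma, adjusted p = 0.378) and -0.71 ± 0.72 in LSK (0.985). The difference between these effects, 2.35 ± 1.10, had an adjusted p of 0.36, where 0.033% of all genes passed. It was the only one of the 9 under an unadjusted 0.05, against 13.6% of all genes. Without deleted GMP K1359 the GMP difference was 0.68.

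Hspb1 encodes HSP27, a small heat shock protein that holds unfolded proteins and binds actin. Its values were low in every group and ran against those of the HSP90 and HSP70 genes. Control LSK lay between 4.75 and 5.21 and deleted LSK between 4.52 and 5.79, with medians of 4.90 and 4.75. Control GMP read 5.91, 5.34, 6.62, 5.67 and 5.13 on K1601, K1602, K1603, K1604 and K1581, and deleted GMP 4.52, 4.98, 5.44 and 5.22 on K1190, K1272, K1359 and K1421. Its highest control GMP values were those of K1603 and K1601, whose upper quartiles were low and whose medians over all probe sets, 4.90 and 4.87, were high. The difference on deletion in GMP was -0.70 ± 0.30 (SE, limma, adjusted p = 0.317), and between the control cell types it was 0.81 ± 0.27 (0.053). With the upper quartile as a covariate these became -0.50 (0.506) and 0.43 (0.451). The second probe set, 1422943_a_at, gave -0.019 and 0.53, neither called.

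Hspd1 and Hspe1 encode HSP60 and HSP10, the ring and the lid of the mitochondrial chaperonin, and share the stretch between their starts shown above. Hspd1 ran from 11.30 on K1602 to 12.29 in control LSK and from 8.28 on K1272 to 12.78 in deleted LSK, with medians of 12.10 and 12.34. Control GMP read 10.66, 12.00, 10.57, 10.88 and 11.93 on K1601, K1602, K1603, K1604 and K1581, and deleted GMP 12.57, 12.72, 11.73 and 11.98 on K1190, K1272, K1359 and K1421. Of the control GMP arrays, 3 lay below every deleted one, and the other 2 reached into the deleted range. The difference on deletion in GMP was 1.04 ± 0.65 (SE, limma, adjusted p = 0.443), and that between the control cell types was -0.79 ± 0.58 (0.322), which turned to 0.71 (0.411) with the upper quartile as a covariate, where the GMP difference was 0.27.

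Hspe1 did not follow Hspd1. Control LSK ran from 11.61 to 12.91 and deleted LSK from 10.79 on K1359 to 13.52, with medians of 12.32 and 12.87. Control GMP read 13.47, 13.04, 12.98, 13.12 and 13.72 on K1601, K1602, K1603, K1604 and K1581, and deleted GMP 13.29, 12.91, 13.33 and 13.91 on K1190, K1272, K1359 and K1421. Every control GMP array lay above every control LSK array, with a difference of 0.96 ± 0.37 (SE, limma, adjusted p = 0.0875), and it passed without deleted LSK K1359 (0.0202); with the upper quartile as a covariate it was 0.73 (0.427). Its dimmer probe set, 1422579_at, gave 1.57 ± 0.51 (adjusted p over all probe sets, 0.057). The deleted cell types differed by 0.69 ± 0.40 (0.841), and deletion by 0.37 ± 0.36 in LSK (0.985) and 0.09 ± 0.41 in GMP (0.914). On deleted LSK K1272, where Hspd1 was 8.28, Hspe1 read 12.93, and the difference Hspe1 minus Hspd1 was 4.65, against -1.11 to 0.75 on the other deleted LSK arrays and 1.03 to 2.82 in control GMP. These probe sets differ in affinity, so this difference is compared between arrays only.

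**Figure D4:**
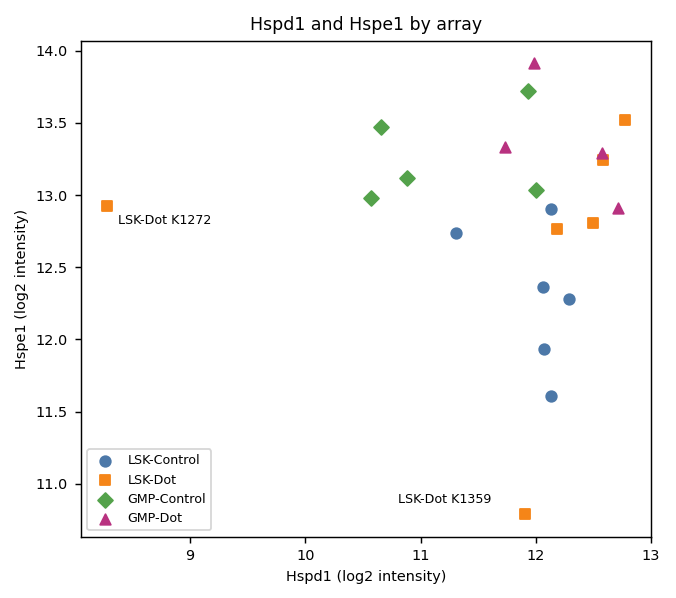
Hspe1 against Hspd1 on the 21 arrays, both as log2 intensity, by group. Deleted LSK K1272 lies far to the left at 8.28 for Hspd1 with Hspe1 at 12.93, and deleted LSK K1359 lies lowest for Hspe1 at 10.79.

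Taken array by array, 5 of the genes moved together. Pearson's r of each gene with the mean of the other 8 over the 21 arrays, given as a description since the arrays share normalization and brightness, was 0.866 for Hspd1, 0.785 for Hspa8, 0.777 for Hsp90aa1, 0.742 for Dnaja1 and 0.739 for Hsph1. It was 0.524 for Dnajb1, 0.0969 for Bag3, -0.252 for Hspe1 and -0.635 for Hspb1. With group means removed it was 0.856 for Hspd1 and -0.492 for Hspb1. Without deleted LSK K1272 it was 0.861 for Hsp90aa1, 0.852 for Hspd1, 0.747 for Dnaja1, 0.646 for Hspa8 and 0.645 for Hsph1. Among the others it was then 0.216 for Dnajb1, 0.0118 for Bag3, -0.293 for Hspe1 and -0.776 for Hspb1. The mean over the 9 genes, each taken from its own mean, was lowest on the 3 dimmest arrays, at -1.39 on deleted LSK K1272, -1.14 on control GMP K1601 and -0.85 on control GMP K1603. On the other 18 arrays it lay between -0.23 and 0.73. Deleted GMP K1359 and K1421, whose upper quartiles of 6.27 and 6.31 were also low, had means of 0.24 and 0.0038, and in control LSK the brightest array, K1603, had the lowest mean, -0.14. The part of brightness in the differences between groups was not tested beyond the fits with it that are given above.

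**Figure D5:**
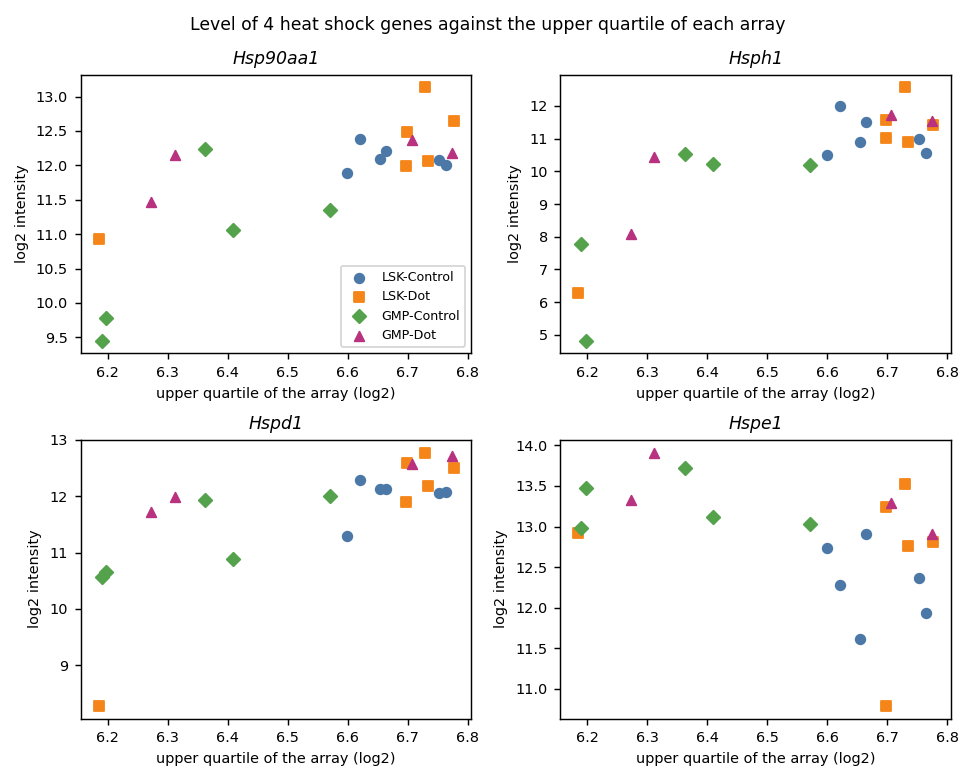
Log2 intensity of Hsp90aa1, Hsph1, Hspd1 and Hspe1 on each of the 21 arrays against the upper quartile of all probe sets on that array (log2), by group. The 3 arrays between 6.18 and 6.20 hold the 3 lowest values of Hsp90aa1, Hsph1 and Hspd1, and lie among the others for Hspe1.

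The 10 other genes most like this mean over the 21 arrays were Rsl1d1, Sdad1, Hspa4, Ide, Nop56, Ppat, Rnaseh2b, Dnajc3, Cul4b and Eif2s2, with r from 0.946 to 0.906. Nop56 is a core protein of the snoRNPs that modify ribosomal RNA, Eif2s2 a subunit of the initiation factor that brings the first transfer RNA, and Hspa4 an HSP110 protein. With group means removed, Rsl1d1, Sdad1, Hspa4, Ide, Nop56, Cul4b and Eif2s2 were again among the 10, joined by Vps16, Naca and Ybx1, with r from 0.935 to 0.912. The part of the arrays' brightness in these values was not tested.

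The wider chaperone network was read from lists of its other branches, chosen from general knowledge. In LSK deletion none of the listed genes passed. The counts below for GMP deletion stand beside 34.3% of all genes above 0 and their median of -0.20. In GMP deletion 1 gene of the 10 chaperone and stress lists passed: Dnajc13, an endosomal J-domain protein, higher in deleted GMP by 1.85 ± 0.36 (SE, limma, adjusted p = 0.0465). It was 1 of 18 other J-domain genes, 11 of which stood above 0 with a median of 0.49; Dnajb4 was at 3.47 ± 0.84 (0.108) and Dnajc5 at 1.79 ± 0.46 (0.14). The call of Dnajc13 was lost with the upper quartile as a covariate. It held without K1091, K1272 or K1422 of deleted LSK or K1359 of deleted GMP, and was lost on leaving out any other single array. Of 11 other HSP70 and HSP110 genes none passed and 8 stood above 0 with a median of 0.41, among them Hspa13, a microsomal HSP70, at 2.12 ± 0.66 (0.201) and Hspa4 at 1.28 ± 0.54 (0.318). Of 16 HSP90 co-chaperones none passed, 9 stood above 0 with a median of 0.53, and the smallest p-values belonged to genes of opposite sign, Ppp5c at -1.29 ± 0.38 (0.175) and Ahsa2 at 1.85 ± 0.65 (0.245). None of 13 subunits of the cytosolic chaperonin TRiC and of prefoldin passed, 11 standing above 0 with a median of 0.32 and Cct6a at 1.04 ± 0.45 (0.32). None of 8 BAG and exchange factor genes passed, and 6 stood below 0 with a median of -0.34, where Bag2 read 0.97 ± 0.50 (0.382). None of 9 other small heat shock protein genes passed, and 6 stood below 0 with a median of -0.075, where Hspb7 read 2.59 ± 0.75 (0.175).

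Among chaperones outside the cytosol, none of 15 of the endoplasmic reticulum passed in GMP deletion, with 12 above 0, a median of 0.47, and Dnajc3, the inhibitor of PERK, at 2.11 ± 0.74 (SE, limma, adjusted p = 0.245). None of 7 mitochondrial chaperones and proteases passed, with 5 above 0, a median of 0.60, and Lonp1, the matrix protease, at 1.43 ± 0.59 (0.303). With the upper quartile as a covariate, against a median of -0.073 over all genes, the medians became -0.054 for the J-domain genes, -0.15 for the HSP70 and HSP110 genes, -0.098 for TRiC and prefoldin, 0.032 for the HSP90 co-chaperones, 0.042 for the endoplasmic reticulum and 0.044 for the mitochondria. The first 3 of these changed sign, as did the small heat shock protein genes, at 0.067.

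The factors and targets of the stress response were read in the same fit. Of 6 HSF genes and regulators listed 5 were measured, and Hsf1 itself was not among them. None of these 5 passed, and 3 stood below 0 with a median of -0.30. Of 18 other genes that HSF1 can induce none passed, and 12 stood above 0 with a median of 0.42, or 0.11 with the covariate. The 17 immediate early genes, which rise when cells are handled or stimulated, had 0 calls and 12 below 0 with a median of -0.29, and Ier2 at -1.44 ± 0.50 (SE, limma, adjusted p = 0.245). Their mean over all arrays lay between -0.59 and 0.47 in control GMP and -0.80 and 0.017 in deleted GMP, and these ranges overlap.

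Between the control cell types 16 of 111 listed genes passed, where 12% of all genes did. The endoplasmic reticulum chaperones held 5 of these, all higher in control GMP: Sdf2l1 by 3.45 ± 0.60 (SE, limma, adjusted p = 0.0015), Manf by 1.60 ± 0.41 (0.0166), Pdia6 by 1.24 ± 0.33 (0.0203), Hyou1 and Calr. Hyou1, Calr and, below, Dnajc15 were named after their values were seen, to complete their lists. With 5 of 15 called higher, against 7.03% of all genes, and a median of 0.50 beside 0.29, the list stood opposite in sign to Hsp90aa1. Among other J-domain genes, Dnajc15 (1.97 ± 0.57) and Dnaja4 were higher in control GMP, and Dnajb2 (-2.21 ± 0.48, adjusted p = 0.00708) and Dnajb4 (-3.04 ± 0.76, 0.016) were lower. Of the mitochondrial list 1 gene was called higher and 1 lower; the higher one was Grpel1, the nucleotide exchange factor of the matrix HSP70, by 1.77 ± 0.41 (0.0109). The metallothionein Mt1 was higher by 4.10 ± 0.53 (0.00014) and Ddit4, an inhibitor of mTORC1, lower, at -2.93 ± 0.67 (0.00954). The small heat shock gene Cryab and the prefoldin gene Pfdn2 passed as higher, and of the HSP70 genes 2 passed as lower, among them Hspa12b. With the upper quartile as a covariate 8 of 111 passed, among them Sdf2l1, Manf, Hyou1, Grpel1, Dnajc15 and Mt1, and over single arrays left out the count ran from 8 to 37.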

How the data were processed

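Per the labels' protocols, total RNA of sorted cells was hybridised to Affymetrix mouse arrays. Per the submitters' processing notes, RMA was used to make the intensities that the authors deposited. The values are on a linear scale, as read from the values themselves, and log2 was taken with no pseudocount. Background correction and probe summary are the authors', and no detection calls were used. The platform annotation lists 1 gene symbol for 34958 of the 45101 probe sets, several for 932 and none for 9211. Entrez identifiers of 34754 matched a RefSeq gene table of GRCm38.p6, and 0 symbols changed.

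Groups came from the sample titles. limma 3.58.1 in R 4.3.3 was fitted with 4 group means over all 21 arrays, with Benjamini-Hochberg adjustment over 18194 genes, or over all probe sets for single probe sets, and a threshold of 0.05. Precision is limited by how many arrays there are. The 5 comparisons were deletion in LSK and in GMP, the difference of these, and GMP against LSK in controls and in deleted cells. The members and lists were chosen with earlier results of these data known. Named were all members, of each list up to 3 genes with the smallest p in GMP deletion or among those called between cell types, each gene called on deletion, the 10 genes most like the members, and Dot1l; 1 listed gene is not reported here.

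In simulated data, 200 of 18194 genes were given a known change. The noise was normal, independent between genes and arrays, and had the same SD in every group for a gene. Arrays that stand apart over many genes, such as deleted LSK K1272, were not simulated, so the counts may not hold for the real arrays. The fit gave these calls. For GMP deletion it called 16 of 100 genes that were moved by a log2 of 1, 75 of 100 moved by 2, and 4 that were not moved. The same figures were 23, 67 and 9 for LSK deletion, and 21, 71 and 10 for control cell types. The K numbers in the titles recur in both cell types, and were checked as pairs. Each array was left out in turn, 11 other settings were run, and 3 more were added after seeing the data: centring on the upper quartile, leaving out the 3 dimmest arrays, and both of these with single arrays left out for 1 probe set of Hsph1.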

Additional observations from a re-analysis of the deposited data

Results flagged for a closer look

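For 7 of the 36 combinations of gene and group, 1 array stood apart from the rest of its group by Dixon's test; chance alone gives about 1.8. Array K1272 of deleted LSK was the low one in 5 of them, at 12.72 for Hspa8, 8.28 for Hspd1, 6.27 for Hsph1, 10.07 for Dnajb1 and 10.3 for Dnaja1. The same array had a mean over the LSK markers of -2.13 relative to all arrays and an upper quartile of 6.18; their part in these low values was not tested. Array K1602 of control LSK was low for Hspd1 at 11.3, and array K1359 of deleted LSK was low for Hspe1 at 10.79.

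On the chosen probe set of Hspa8, all 6 deleted LSK arrays lay below the control mean, K1359 only just, at 13.59 against 13.60. All 4 deleted GMP arrays lay above the control mean of GMP. The effects differed by 0.44 ± 0.24 (SE), which did not pass (limma, adjusted p = 0.397). The share of all genes with this pattern was not counted. In LSK the pattern did not hold on the other probe sets of the gene. On 1420622_a_at, for example, deleted LSK K1091, K1190 and K1421 read 13.46, 13.61 and 13.36, above the control mean of 13.29.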

How the results depend on the processing

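The counts of called heat shock genes on deletion were 0 in LSK and in GMP under every setting run, with the exception of array quality weights, which gave 5 in GMP where they called 7153 of all genes. Between control cell types the count of 1 became 3 with quantile normalization again, 0 with the upper quartile as a covariate, 0 with the mean of probe sets, 0 without the probe sets whose names end in _s_at, _x_at or _a_at, 3 with array weights, 4 with only the groups compared, 0 with K1190 and K1272 of deleted GMP averaged, 2 with upper quartile centring and 0 without the 3 dimmest arrays. It ran from 0 to 6 on leaving out single arrays. Array weights gave 1 between deleted cell types, Dnajb1. For the 111 listed genes, single arrays left out gave 0 to 2 in LSK deletion, 0 to 5 in GMP deletion, 0 to 1 for the difference of effects, 8 to 37 between control and 0 to 1 between deleted cell types. The covariate gave 0, 8 and 2 for GMP deletion, control and deleted cell types. The causes were not tested.

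Of the 9 pairs of arrays that share a K number within a genotype, 1 deviated together with an r above 0.1. This was K1190, at 0.272, the only pair best with its own number. The lowest r, -0.397, was that of K1272, whose deleted LSK array stood apart from its group. Fitted as a replicate block, the K number gave 0 called between control cell types, with Hsp90aa1 at -1.28 (limma, adjusted p = 0.156). It turned Hsph1 to 0.12 between deleted ones.

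Estimates that changed sign, none of them called, were these. With the covariate, Dnajb1 was 0.028 in LSK, -0.11 in GMP, -0.14 for the difference and 0.10 between control cell types, where Hspd1 was 0.71 and Hsph1 0.26; between deleted ones Hsp90aa1 was 0.13, Hsph1 0.77 and Hspb1 -0.015. With the mean of probe sets, Hspa8, Hspb1 and Dnajb1 were 0.089, 0.22 and 0.18 in LSK, Hspe1 and Dnajb1 -0.056 and -0.37 in GMP, Dnajb1 -0.54 for the difference and 0.64 between control cell types, and Hsp90aa1, Dnajb1 and Dnaja1 0.10, 0.091 and 0.064 between deleted ones. Without the named probe sets Hspa8 was 1.04 in LSK and 0.72 between control cell types, Hspe1 -0.21 in GMP and Hsp90aa1 0.25 between deleted ones. With array weights Hspd1, Hsph1 and Dnajb1 were 0.42, 0.59 and 0.26 in LSK, Hspe1 -0.12 in GMP, Dnajb1 -0.12 for the difference, and Hspa8 and Hspb1 -0.030 and -0.17 between deleted cell types. With centring on the upper quartile Hspb1 and Dnajb1 were 0.027 and 0.012 in LSK, Hspe1 and Dnajb1 -0.076 and -0.044 in GMP, and Dnajb1 -0.055 for the difference. Without the 3 dimmest arrays Hspd1, Hsph1 and Dnajb1 were 0.39, 0.42 and 0.31 in LSK, Hsph1 and Dnajb1 -0.30 and -0.17 for the difference, and Hspa8 and Hspd1 -0.062 and -0.14 between deleted cell types.

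Over single arrays left out, signs turned within these ranges. In LSK they were -0.084 to 0.36 for Hsp90aa1, -0.51 to 0.39 for Hspd1, -0.84 to 0.42 for Hsph1, -0.19 to 0.068 for Hspb1 and -0.15 to 0.31 for Dnajb1. In GMP they were -0.090 to 0.24 for Hspe1 and -0.020 to 0.22 for Dnajb1, and for the difference -0.18 to 0.28 for Dnajb1. Between deleted cell types they were -0.43 to 0.023 for Hsp90aa1, -0.062 to 0.11 for Hspa8, -0.14 to 0.76 for Hspd1, -1.06 to 0.60 for Hsph1 and -0.011 to 0.30 for Hspb1.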
